A study of Homo sapiens with 16 samples.

Results

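The early growth response (EGR) transcription factors EGR1, EGR2, EGR3 and EGR4 and their corepressors NAB1 and NAB2 were followed in Caco-2 cells, a human colon carcinoma line, after 6 h with digested gliadin or its controls. The 6 genes were chosen by name with their values on these arrays already known, so the differences given for them are a description. Every probe carrying 1 of these names was taken, which gave 8 of the 41000 probes of the array. EGR1, EGR2, EGR3 and EGR4 have 1 probe each, and NAB1 and NAB2 have 2.

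EGR proteins are zinc finger factors that bind short GC-rich elements. Their genes are switched on within minutes of growth factors, serum or protease signals, largely through ERK and the serum response factor SRF, which binds CArG boxes together with ternary complex factors such as ELK1 and ELK4. NAB1 and NAB2 bind EGR1, EGR2 and EGR3 and repress the genes these occupy, and EGR factors in turn switch on NAB2, which closes a feedback loop. NAB2 also binds CHD4, a subunit of the NuRD chromatin remodelling complex.

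Undifferentiated Caco-2 cells, seeded at low serum, received 1 of 4 treatments, each on 4 arrays. MED-CTL cells stayed in medium with 1% serum. The p31-43 cells received the synthetic gliadin peptide p31-43 at 150 µg/ml, the PT cells a pepsin and trypsin digest made without any substrate, and the PT-G cells gliadin digested with pepsin and trypsin. The paper states that both enzymes were heat-inactivated once digestion was done, which it checked with a fluorogenic trypsin substrate. The concentrations of PT and PT-G are not given in the labels. The cells came from 4 independent experiments a passage or so apart, all groups were harvested with trypsin, and 1 array of each treatment shared a date mark, here called a run. The 16 single-colour arrays lay on 5 slides. Replicate 1 and replicate 2 of MED-CTL belonged to runs 2 and 1, and every other array to the run of its own number.

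Median spot intensity ran from 153 to 410 over the 16 arrays against a local background of 48 to 65, and 27660 to 33947 spots per array were well above background. Of 9 epithelial and intestinal markers, 8 were well above background on all 16 arrays and CDX1 on 1. Among the markers of other cells, PTPRC and COL1A2 were above it on none. The summed normalised intensity of the epithelial list lay between 859870 and 1081160, and that of the other list between 3467 and 6054, with ranges of 4828 to 6054 in MED-CTL, 4055 to 6002 in p31-43, 3467 to 5271 in PT and 3676 to 4761 in PT-G. The part of this second list in the EGR and NAB values was not tested.

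The DNA just before the starts of these genes shows which of them carry the elements named above. RefSeq promoters (GRCh38.p14) were searched for 5 of the 6 genes, and EGR3 was left out, so nothing is said of its elements. The 250 bases before the start are printed 5′ to 3′ on the strand of the gene for those whose elements differ. Capitals mark CArG boxes, the EGR elements GCGTGGGCG and GCGGGGGCG, and the letters TGACGT of cyclic AMP response elements, each searched on both strands, so that TGACGT may read ACGTCA. The last of these was added after the sequences had been seen. EGR1 is on chr5:138465229-138465478 (plus strand), EGR2, by the third of its 3 starts, on chr10:62816367-62816616 (minus strand), EGR4 on chr2:73293549-73293798 (minus strand) and NAB2 on chr12:57088864-57089113 (plus strand).
EGR1: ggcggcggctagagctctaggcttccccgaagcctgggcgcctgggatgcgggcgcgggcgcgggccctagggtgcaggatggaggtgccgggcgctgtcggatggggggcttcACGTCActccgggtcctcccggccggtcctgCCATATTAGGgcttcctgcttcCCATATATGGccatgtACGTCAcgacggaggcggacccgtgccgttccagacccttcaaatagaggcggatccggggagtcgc
EGR2: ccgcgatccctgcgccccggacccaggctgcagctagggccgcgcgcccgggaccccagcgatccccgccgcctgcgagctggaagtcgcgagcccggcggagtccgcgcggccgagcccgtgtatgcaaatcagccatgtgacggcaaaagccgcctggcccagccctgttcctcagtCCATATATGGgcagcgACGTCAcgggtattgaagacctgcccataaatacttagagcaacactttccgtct
EGR4: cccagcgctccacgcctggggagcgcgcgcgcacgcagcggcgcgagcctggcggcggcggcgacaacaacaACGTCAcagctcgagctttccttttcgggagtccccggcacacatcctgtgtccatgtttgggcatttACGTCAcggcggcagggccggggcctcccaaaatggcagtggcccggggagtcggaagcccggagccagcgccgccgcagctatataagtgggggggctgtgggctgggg
NAB2: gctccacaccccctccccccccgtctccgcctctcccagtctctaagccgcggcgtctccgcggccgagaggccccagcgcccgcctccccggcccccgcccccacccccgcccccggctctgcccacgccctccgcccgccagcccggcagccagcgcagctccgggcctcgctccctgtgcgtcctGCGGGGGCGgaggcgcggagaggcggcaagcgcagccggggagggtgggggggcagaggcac
EGR1 holds 2 CArG boxes and 2 copies of TGACGT in this window, EGR2 1 of each, and EGR4 2 copies of TGACGT and no CArG box. NAB2 holds 1 GCGGGGGCG, between 62 and 54 bases before its start. NAB1, which has 3 annotated starts, holds 2 overlapping copies of GCGGGGGCG before the first, and 1 GCGTGGGCG before the second start, whose window takes in those 2 copies as well. Before the third lies 1 TGACGT, and the other starts of EGR2 have none of these elements. Of 35116 promoter windows of the same length, 1.16% held a CArG box, 0.72% GCGTGGGCG, 4.72% GCGGGGGCG and 7.1% TGACGT. These matches are letters only, and no binding was measured here.

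All levels that follow are log2 normalised median intensities, in which a step of 1 is a factor of 2, and levels of different probes are not comparable with each other. EGR4, a family member known mainly from neurons and germ cells and lacking the NAB-binding domain, differed most. On the MED-CTL arrays it was at 9.99, 7.83, 8.50 and 7.61 in replicates 1 to 4, and on the p31-43 arrays at 8.61, 10.10, 8.19 and 7.62. On the PT arrays it was at 11.61, 11.95, 10.81 and 11.55, and on the PT-G arrays at 11.59, 12.12, 11.25 and 10.93. Every digest array, with or without gliadin, was above every MED-CTL and p31-43 array. The highest values without a digest, 9.99 in MED-CTL and 10.10 in p31-43, came from the same run. The group means were 8.48 ± 1.07 in MED-CTL, 8.63 ± 1.06 in p31-43, 11.48 ± 0.48 in PT and 11.47 ± 0.51 in PT-G (SD, n = 4 arrays). EGR4 thus differed from MED-CTL by 2.99 with PT-G (SE 0.55), 7.95-fold, and by 3.00 with PT (SE 0.55), 7.98-fold, and in both comparisons it ranked 1 by fold change among the 40982 probes tested.

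EGR3, which acts in muscle spindles, neurons and lymphocytes, showed the same division of the arrays. It was at 7.20, 6.09, 6.95 and 6.24 on the MED-CTL arrays and at 6.39, 7.39, 6.82 and 6.39 on the p31-43 arrays. It was at 8.92, 9.12, 9.04 and 9.78 on the PT arrays and at 8.69, 9.45, 10.19 and 9.80 on the PT-G arrays. No digest array overlapped an array without digest. Means were 6.62 ± 0.54 in MED-CTL, 6.75 ± 0.47 in p31-43, 9.21 ± 0.39 in PT and 9.53 ± 0.64 in PT-G (SD, n = 4 arrays). The difference from MED-CTL was 2.91 with PT-G (SE 0.34), 7.51-fold and rank 2, and 2.59 with PT (SE 0.34), 6.03-fold and rank 3. EGR3 was dim without digest. Its raw intensity on the MED-CTL arrays was 1.3 to 2.6 times the local background and it was not well above background in MED-CTL replicate 2, while with PT and PT-G it was 7.5 to 19.2 times the background. With the background subtracted, the differences were 4.61 for PT-G and 4.26 for PT, so the size of the EGR3 change depends on how background is treated.

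NAB2 lay higher with both digests by about a factor of 2. Its brighter probe (A_23_P76151) was at 11.32, 11.14, 10.94 and 10.66 on the MED-CTL arrays and at 11.00, 11.13, 10.72 and 10.70 on the p31-43 arrays. It was at 12.30, 12.09, 11.63 and 11.81 on the PT arrays and at 12.21, 12.29, 12.09 and 11.47 on the PT-G arrays. Again the arrays with and without digest did not overlap, although the lowest PT-G array and the highest MED-CTL array were only a small step apart. Means were 11.02 ± 0.28 in MED-CTL, 10.89 ± 0.21 in p31-43, 11.96 ± 0.30 in PT and 12.02 ± 0.37 in PT-G (SD, n = 4 arrays), which gave differences from MED-CTL of 1.00 for PT-G (SE 0.20) and 0.94 for PT (SE 0.20). The dimmer probe (A_23_P368187) had similar mean differences, 0.95 (SE 0.38) and 0.82 (SE 0.38), but its groups overlapped. Its PT-G replicate 4 was at 8.61 against 10.13 to 10.19 on the other PT-G arrays, and without that array its PT-G difference was 1.34.

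NAB1 differed by less. The brighter of its probes (A_24_P191417) spanned 11.72 to 12.65 in MED-CTL, 11.77 to 12.16 in p31-43, 12.03 to 12.25 in PT and 12.04 to 12.98 in PT-G, so all 4 groups overlapped. Its differences from MED-CTL were 0.28 for PT-G (SE 0.21) and 0.09 for PT (SE 0.21). The other probe (A_23_P209805) spanned 11.48 to 11.64 in MED-CTL, 11.38 to 11.57 in p31-43, 11.68 to 11.84 in PT and 11.76 to 12.07 in PT-G. On that probe the digest arrays lay above all others, with differences from MED-CTL of 0.35 for PT-G (SE 0.078), 1.28-fold, and 0.20 for PT (SE 0.078), 1.15-fold. The 2 NAB1 probes therefore gave different pictures, and both were small beside NAB2.

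**Figure D1:**
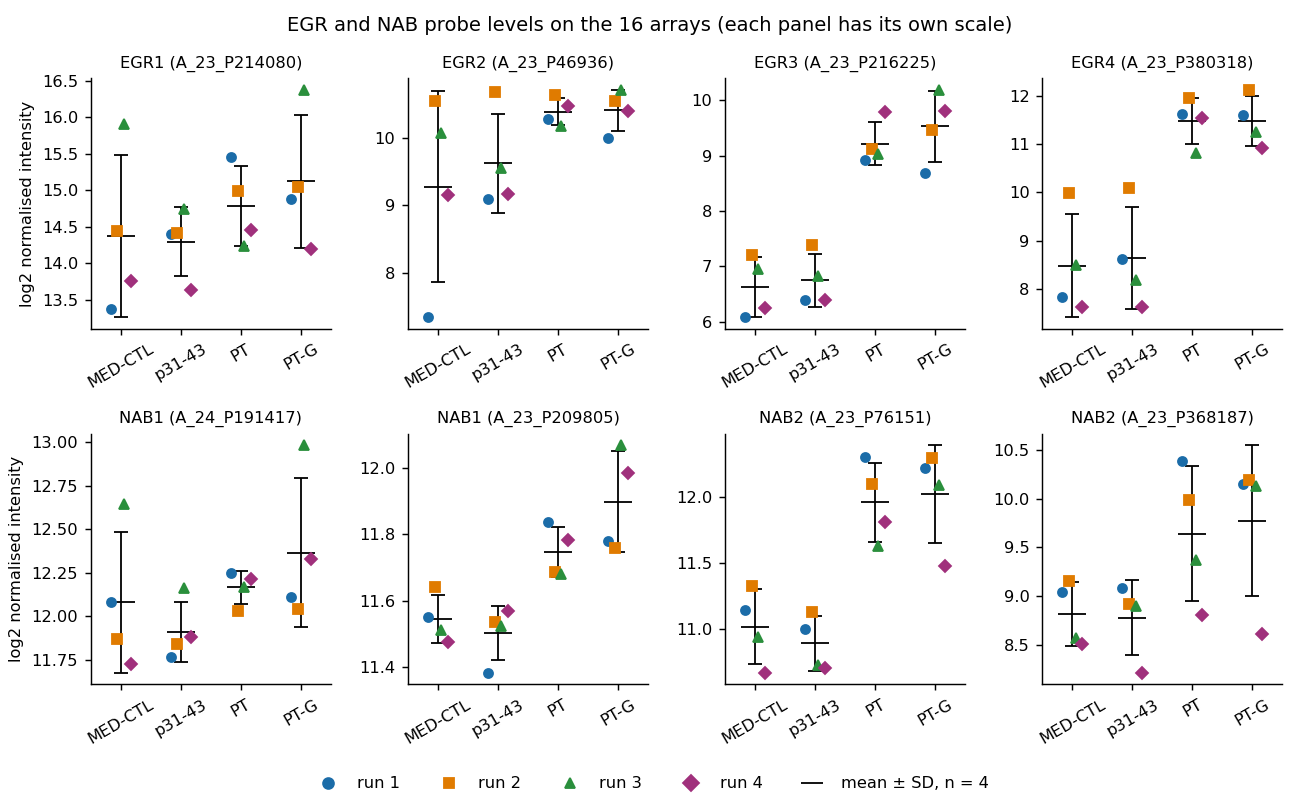
Log2 normalised intensity of the 8 EGR and NAB probes (vertical axes, each panel with its own scale) in the 4 groups (horizontal axes). Points are arrays, with shape and colour by run, and bars are the mean ± SD of 4 arrays. EGR3, EGR4, NAB2 (A_23_P76151) and NAB1 (A_23_P209805) have no overlap between arrays with and without digest, whereas EGR1 and EGR2 overlap, with EGR2 from 7.35 to 10.54 in MED-CTL.

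EGR1 and EGR2 are the family members best known for serum and growth factor responses and, for EGR2, for myelination. Both varied widely among cells that had received no digest. So did EGR4 (SD 1.07 in MED-CTL and 1.06 in p31-43), and EGR1 also varied with PT-G (SD 0.91). EGR1 was at 14.44, 13.38, 15.91 and 13.76 on the MED-CTL arrays and at 14.39, 14.42, 14.75 and 13.63 on the p31-43 arrays. It was at 15.46, 14.99, 14.24 and 14.45 on the PT arrays and at 14.88, 15.05, 16.38 and 14.20 on the PT-G arrays. The highest arrays of MED-CTL and PT-G, both replicate 3, were of the same run and slide, and all 4 groups overlapped. Means were 14.37 ± 1.12 in MED-CTL, 14.30 ± 0.47 in p31-43, 14.79 ± 0.55 in PT and 15.13 ± 0.91 in PT-G (SD, n = 4 arrays). EGR1 was bright in every group, at 146 to 1365 times the local background, and unsaturated. Its differences from MED-CTL, 0.75 for PT-G (SE 0.53) and 0.41 for PT (SE 0.53), were within the spread between arrays when runs were not matched. They ran from 0.34 (without PT-G replicate 3) to 1.27 (without MED-CTL replicate 3) for PT-G and from 0.082 (without MED-CTL replicate 2) to 0.93 (without MED-CTL replicate 3) for PT when 1 array was left out.

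EGR2 was at 10.54, 7.35, 10.08 and 9.16 on the MED-CTL arrays and at 9.09, 10.67, 9.56 and 9.16 on the p31-43 arrays. It was at 10.27, 10.64, 10.17 and 10.47 on the PT arrays and at 9.99, 10.54, 10.70 and 10.39 on the PT-G arrays. The digest arrays lay close together near the top of the range of the untreated arrays. The SD between arrays was 1.41 in MED-CTL, 0.73 in p31-43, 0.21 in PT and 0.30 in PT-G. The mean differences from MED-CTL were 1.12 for PT-G and 1.11 for PT (SE 0.54 each). They rested largely on MED-CTL replicate 2, and without it they were 0.48 and 0.46.

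By group, the order of the mean levels was PT-G, PT, MED-CTL and p31-43 for EGR1, both NAB2 probes and both NAB1 probes, and PT-G, PT, p31-43 and MED-CTL for EGR2 and EGR3. For EGR4, PT and PT-G changed places at the top. For EGR3, EGR4, NAB2 (A_23_P76151) and NAB1 (A_23_P209805) the step in this order whose arrays did not overlap was that between the 2 digest groups and the 2 groups without digest. In bulk RNA, more cells with a transcript and more transcript per cell cannot be told apart.

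Set against all probes, these counts read as follows. A probe was called where its nominal limma p was under 0.01, the threshold of the study's methods. For PT-G with MED-CTL, 4 of the 8 member probes were called and higher (EGR3, EGR4, NAB2 by A_23_P76151 and NAB1 by A_23_P209805), beside 3.44% of all probes called in either direction. With an adjusted p under 0.05 there were 3, without NAB1, beside 0.944%, and 4 had groups that did not overlap, beside 3.87%. For PT with MED-CTL, EGR3, EGR4 and NAB2 were called (3.64% of all probes), the same 3 passed the adjustment (0.82%), and 4 had groups apart (5.08%). Both comparisons share the MED-CTL arrays. The adjusted counts fell to 1 without MED-CTL replicate 2 in either comparison, without PT-G replicate 1 or 2 in the first, and without PT replicate 1, 2 or 4 in the second, and with only the compared groups fitted they were 0 and 1. With a replicate block they were 5 and 4, since the dimmer NAB2 probe passed in both and NAB1 (A_23_P209805) with PT-G. Because the genes were chosen on these comparisons, nothing is read from those counts.

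The gliadin peptide alone was also set against medium, with these values known when the genes were chosen. For p31-43 with MED-CTL none of the 8 probes was called, beside 0.388% of all probes. None had a nominal limma p under 0.05, and none passed the adjustment. With so low a share over all probes, nothing is read from these counts. The differences were −0.08 for EGR1 (95% interval −1.22 to 1.07), 0.34 for EGR2 (−0.81 to 1.49), 0.13 for EGR3 (−0.61 to 0.87), 0.15 for EGR4 (−1.03 to 1.32) and −0.13 for NAB2 by A_23_P76151 (−0.55 to 0.30). The intervals for EGR3, EGR4 and NAB2 lie below the differences measured with either digest. Those for EGR1 and EGR2 are wide enough to hold changes of the size seen with PT-G.

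The digests of gliadin and of enzyme alone were compared directly to ask what gliadin added. For PT-G with PT none of the 8 probes was called, beside 0.0903% of all probes. None of them had a nominal limma p under 0.05, and none passed the adjustment. Nothing is read from these counts either, and the differences are a description. EGR4 differed by −0.01 (95% interval −1.18 to 1.17), EGR3 by 0.32 (−0.42 to 1.05), NAB2 by 0.06 (−0.37 to 0.49) and EGR1 by 0.34 (−0.80 to 1.48). An added gliadin effect on EGR4 of up to about a factor of 2 in either direction lies within that interval. The narrowest interval was that of NAB1 by A_23_P209805, 0.15 (−0.02 to 0.32).

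The digests were also set beside the peptide cells, in comparisons that reuse the digest arrays of those above. For PT-G with p31-43, 4 probes were called (3.73% of all probes), the same 4 passed the adjustment (1.16%) and had groups apart (5.8%), with differences of 2.84 for EGR4, 2.78 for EGR3, 1.13 for NAB2 and 0.39 for NAB1 by A_23_P209805. The adjusted count of 4 fell to 1 with only those groups fitted and without p31-43 replicate 4, and to 2 without p31-43 replicate 1 or 3 or PT-G replicate 2. For PT with p31-43 the same 4 were called (3.15%), 3 of them passed the adjustment (0.769%) and 4 had groups apart (5.91%), with differences of 2.85 for EGR4, 2.46 for EGR3, 1.07 for NAB2 and 0.24 for NAB1. This call of NAB1 was kept in 15 of 27 alternatives, and was lost with a replicate, run or slide block, with median scaling, background subtraction or the filter on dim probes, and without MED-CTL replicate 2, p31-43 replicate 1, 2 or 3, or PT replicate 1 or 4. The adjusted count of 3 fell to 1 without p31-43 replicate 1, 3 or 4 or PT replicate 1, 2 or 4.

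**Figure D2:**
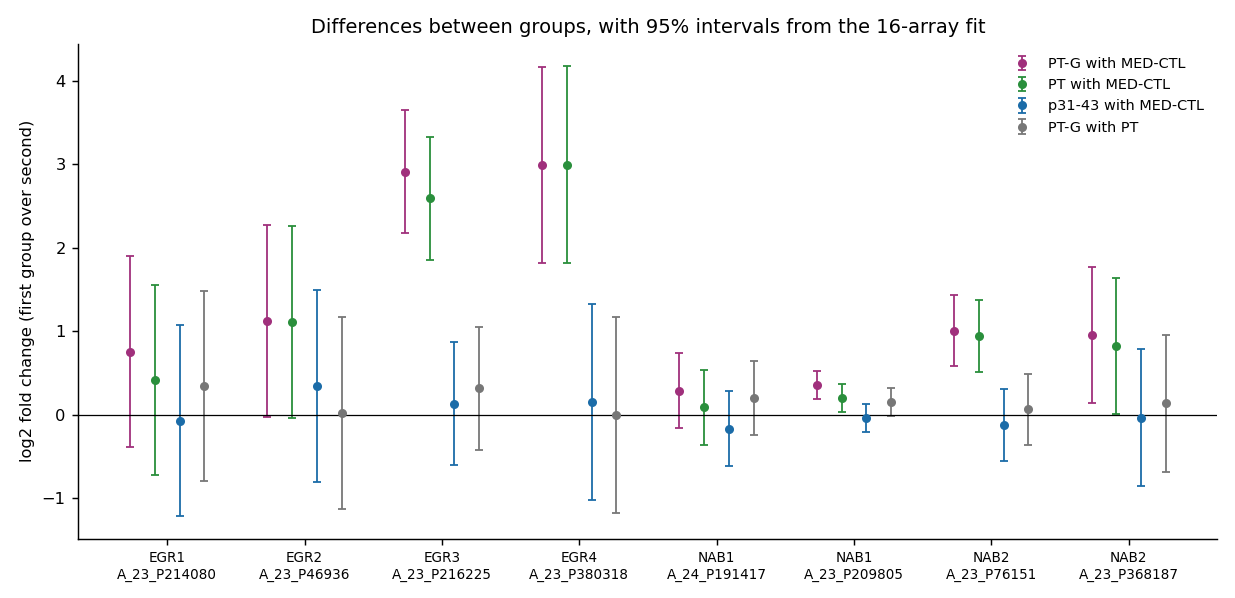
Log2 fold change (vertical axis, first group over second) of each EGR and NAB probe (horizontal axis) in 4 comparisons, with 95% intervals from the fit of 16 arrays. EGR3 and EGR4 lie between 2.59 and 3.00 for both digests, while all values for p31-43 with MED-CTL and for PT-G with PT lie between −0.17 and 0.34.

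Within runs, where a treated array was set against the MED-CTL array of the same run, the probes differed in how steady they were. EGR4 was higher with PT-G in 4 of 4 runs, by 2.13 to 3.76, and with PT in 4 of 4, by 1.96 to 3.93. EGR3 was higher by 2.25 to 3.55 and by 1.92 to 3.53, and NAB2 (A_23_P76151) by 0.81 to 1.15 and by 0.69 to 1.16, again in 4 of 4 runs each. The dimmer NAB2 probe (A_23_P368187) was higher in 4 of 4 runs but less evenly, by 0.10 to 1.56 with PT-G and 0.30 to 1.35 with PT. NAB1 by A_23_P209805 was higher in 4 of 4 runs, by 0.12 to 0.56 with PT-G and 0.046 to 0.31 with PT. Run 2, where the MED-CTL levels of EGR2, EGR3 and EGR4 were the highest, had the smallest PT-G and PT differences of EGR3 and EGR4. EGR2 differed with PT-G by 2.64 in run 1, 0.0031 in run 2, 0.62 in run 3 and 1.23 in run 4. EGR1 was higher with PT-G in 4 of 4 runs, by 0.44 to 1.51. With PT it was higher in 3 and lower by 1.67 in run 3, where the PT array lay on another slide than the MED-CTL array. For NAB1 by A_24_P191417 the PT difference was likewise negative only in run 3, at −0.48. The peptide array differed from its own medium array by −0.13 to 0.30 for EGR3 and by −0.31 to 0.78 for EGR4, and by more for EGR1, at −1.16 to 1.02, and EGR2, at −0.52 to 1.74.

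**Figure D3:**
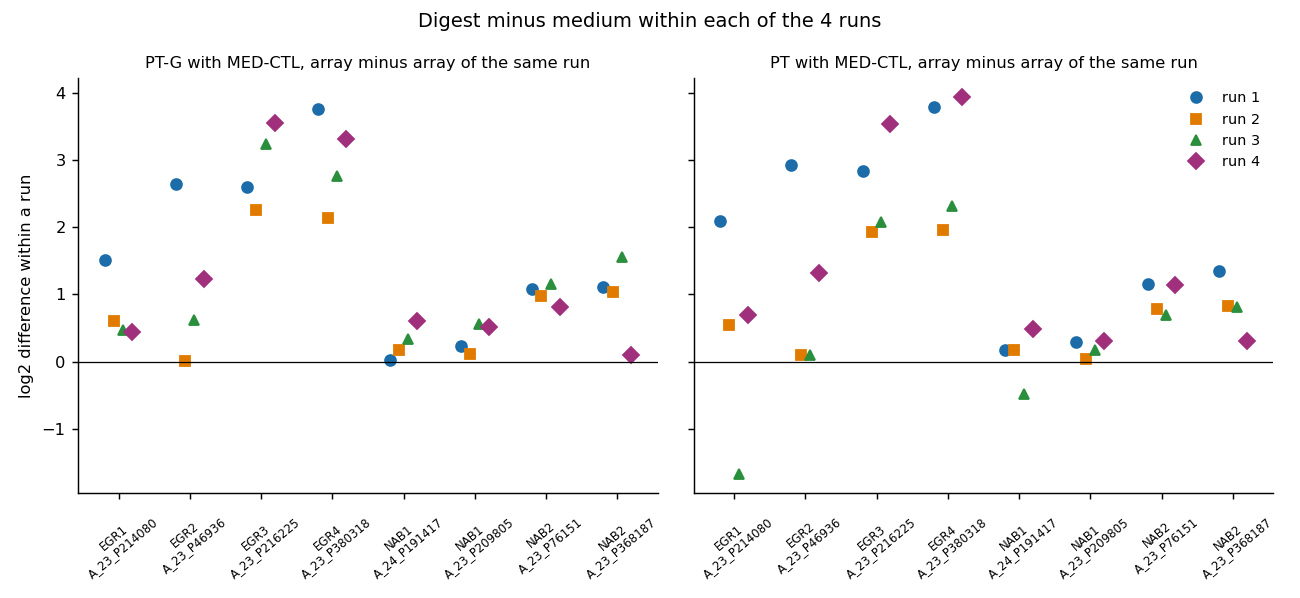
Log2 difference (vertical axes) between the digest array and the MED-CTL array of the same run for each EGR and NAB probe (horizontal axes), PT-G on the left and PT on the right, with shape and colour by run. EGR3, EGR4 and NAB2 (A_23_P76151) are above 0 in all 4 runs of both panels, EGR2 reaches from 0.0031 to 2.64 with PT-G, and EGR1 in run 3 is at −1.67 with PT.

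Runs 1 and 2 were scanned at an earlier date than runs 3 and 4, and the digest response of the 2 periods was compared, which the choice of genes did not use. EGR3 had a response of 2.28 in the early runs and one larger by 0.82 in the late runs (SE 0.47), and EGR4 of 2.69 and 3.15, a difference of 0.47 (SE 0.68). For NAB2 (A_23_P76151) the responses were 1.08 and 0.99, a difference of −0.08 (SE 0.18). EGR1 differed by −0.63 (SE 0.78) and EGR2 by 0.00 (SE 0.85) between the periods. None of the 8 probes passed in limma (adjusted p = 1.00 for each), beside 0.0244% of all probes. At a nominal p under 0.05 there were 741 probes in all and 0 members. The levels of NAB2 themselves were lower in the late runs in every group, at 10.80 against 11.23 in MED-CTL and 11.78 against 12.25 in PT-G, with 2 arrays per group and period.

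Around the EGR and NAB genes, other parts of the pathway were counted by the brightest probe of each gene, in lists made with earlier results of these arrays known. For PT-G with MED-CTL, 16 of 25 other ERK-responsive immediate early genes were called and higher (15 with an adjusted p under 0.05), and 0 lower. Of all probes 3.44% were called and 0.944% passed the adjustment. The median difference was 1.09 beside −0.01 over all probes. For PT they were 17 (14) and 0, beside 3.64% (0.82%) of all probes, with a median of 0.93. For p31-43 none was called, beside 0.388%, a share too low for that count to be read. The greatest PT-G differences were those of IER3, an early response gene linked to the control of apoptosis, at 2.89 (SE 0.24), of DUSP5, a phosphatase that switches off nuclear ERK, at 1.83 (SE 0.18), and of the AP-1 subunits JUNB at 1.78 (SE 0.26) and FOSL1 at 1.77 (SE 0.35). FOS, FOSB and JUN, picked after their values were seen because they are classic partners of EGR1 in the serum response, had differences of 1.01 (SE 0.43), 1.08 (SE 0.59) and 0.87 (SE 0.49) and were not called, and their SE, like that of EGR1 and EGR2, was large.

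The next lists read against 3.44% of all probes called for PT-G with MED-CTL and 3.64% for PT. Of 6 SRF and ternary complex factor genes, ELK4 alone was called with PT-G, at 0.45 (SE 0.12), and none with PT. ELK4 did not pass the adjustment, and SRF itself was at 0.15 (SE 0.17) with PT-G. MKL1 and MKL2, cofactors of SRF, were at 0.24 (SE 0.14) and −0.25 (SE 0.17) and were not called. Of 24 genes known as EGR targets, 2 were called, both higher and both with an adjusted p under 0.05, with either digest, beside 0.944% and 0.82% of all probes after adjustment. They were CDKN1A, which encodes the cell cycle inhibitor p21, at 1.22 (SE 0.27) with PT-G and 1.34 with PT, and ICAM1, an adhesion molecule, at 0.74 (SE 0.089) and 0.74. TGFB1 and VEGFA, growth factors of the same list, were at 0.53 (SE 0.21) and 0.52 (SE 0.18) with PT-G and were not called, and the median of the list was 0.10.

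In the NuRD complex, which NAB2 reaches through CHD4, none of 13 subunits was called with PT-G, PT or p31-43, beside 3.44%, 3.64% and 0.388% of all probes. At those shares, fewer than 1 of 13 would be called, so this count is near the background. Their median PT-G difference was 0.01, and CHD4, named for its link to NAB2, was at −0.04 (SE 0.24). The 4 subunits furthest from 0 were CHD3 at 0.26, GATAD2A at 0.18, MTA2 at −0.18 and RBBP7 at −0.14. Among zinc finger factors of related GC-rich sites, SP4 was called with both digests, at 0.34 (SE 0.089) with PT-G and 0.35 with PT. It passed the adjustment with neither. SP1, SP3 and WT1 were at 0.05, −0.26 and 0.05 with PT-G and were not called. Of the 9 epithelial and intestinal markers, the one furthest from 0 was CDX2, an intestinal transcription factor, at −0.72 (SE 0.48) with PT-G and −0.64 with PT, and it was not called. KRT20, a keratin of mature enterocytes, was the 1 called, at 0.63 (SE 0.12) and 0.50. It passed the adjustment with PT-G but not with PT. VIL1 and KRT8 were at −0.14 (SE 0.12) and −0.09 (SE 0.15) with PT-G, and the list's median was −0.06. Among the markers of other cells, VIM, the mesenchymal marker vimentin, was at −0.47 (SE 0.19) and −0.46 and was not called.

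**Figure D4:**
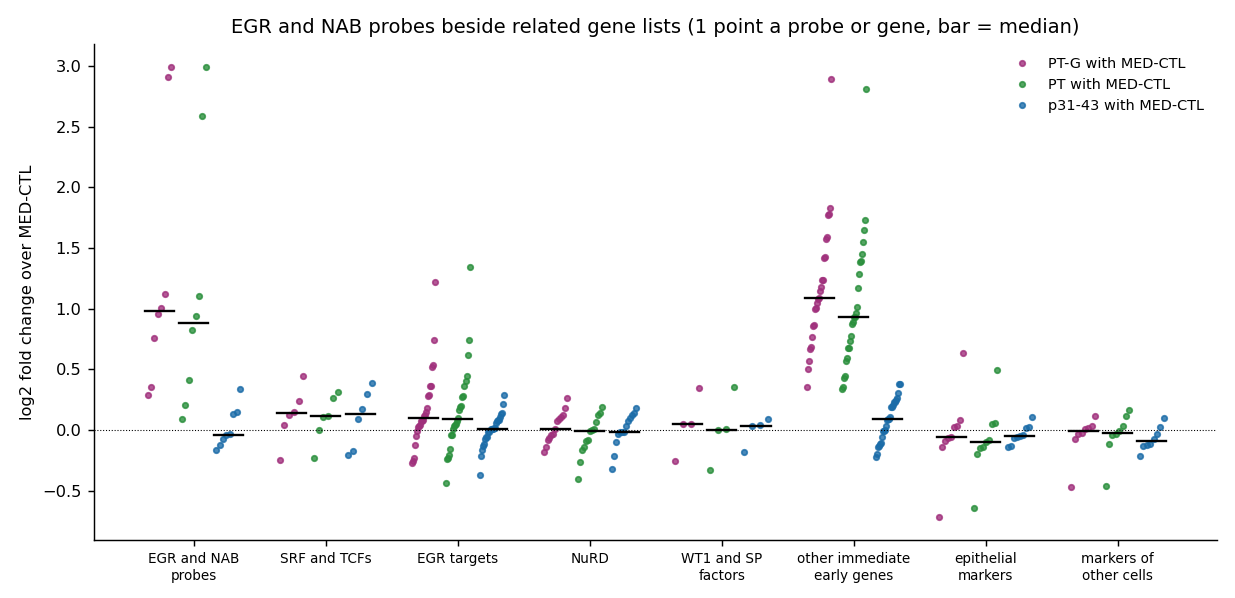
Log2 fold change over MED-CTL (vertical axis) for the 8 EGR and NAB probes and for 7 gene lists (horizontal axis), 1 point a probe or gene, with the 3 treatments by colour and a bar at the median. All 25 other immediate early genes lie above 0 with both digests, with medians of 1.09 and 0.93, while the NuRD, SRF and EGR target lists have PT-G medians between 0.01 and 0.14.

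The genes whose levels over the 16 arrays were most like those of each member were taken among 18253 candidate probes by Pearson's r, given as a description under the names of the array. The arrays with and without digest form separate sets for several members, so a high r can come from that division alone. For EGR4 they were JUNB (r = 0.975), RGS16 (0.972) and RASD1 (0.969), and for EGR3 AHR (0.964), TRIB1 (0.964) and NR4A1 (0.960). For NAB2 they were PLEKHO1 (0.972), MAFF (0.970) and ARL14 (0.968). EGR2 was most like CTGF (0.860), FOSB (0.859) and SCD5 (0.853), at lower values than any other member. EGR1 was most like APAF1 (0.940), H1F0 (0.925) and CXorf15 (0.920), and NAB1 like MTAC2D1 (0.968), GDAP2 (0.960) and CPEB3 (0.959).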

How the data were processed

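The authors' image analysis (Agilent Feature Extraction 9.5.3.1) gave the intensity of every spot, as deposited, without normalisation between arrays. The deposited log2 values, made with limma per the labels, differ from quantile-normalised median intensities of all spots by at most 5.0e-09. Further deposited columns mark controls, outliers and spots well above background.

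Each array carries 45015 spots, of which the 1639 controls were not analysed. Median foreground intensities of the remaining spots were log2-transformed and quantile-normalised with no background correction, outlier-marked spots were dropped, repeated spots were averaged by probe, and 40982 of 41000 probes with at least 3 unmarked arrays in each group were fitted with limma 3.58.1 in R 4.3.3 as 1 model of 4 groups (moderated 2-sided tests, Benjamini-Hochberg adjustment within each comparison). None of the member spots was marked or saturated. The period comparison used PT and PT-G together against MED-CTL and p31-43 within early and late scans. Depth on arrays is signal over background, and their number limits the precision. The p-values measure the spread between these arrays.

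The members, gene lists, motifs and tests were chosen with earlier results of these data known. The rule for named genes took all member probes, the 3 genes of highest r for each member, and up to 4 genes per list by size of the PT-G difference, and exceptions are marked in the text. List genes on more than 1 probe were represented by the brightest. Same-numbered arrays deviated together for PT-G with MED-CTL (correlation across probes 0.395 to 0.857) and p31-43 with MED-CTL (0.262 to 0.707), but not in every pair for PT with MED-CTL (−0.0054 to 0.411) or PT-G with PT (0.049 to 0.695). With arrays matched by run instead, these ranges were 0.628 to 0.857, 0.538 to 0.707, −0.0054 to 0.620 and 0.049 to 0.695. The alternatives were background subtraction with scaling to the 75th percentile, normexp (offset 50), median scaling, the deposited table, marked spots kept, a filter on dim probes, a block for replicate number, run or slide, a fit of only the 2 groups compared, array weights, and leaving out each array. Probe positions are not given because no genome build is named for them.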

Additional observations from a re-analysis of the deposited data

Results flagged for a closer look

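Among 32 sets of 4 arrays (8 probes in 4 groups), 1 had an array far from the others by Dixon's ratio, the gap to the nearest array over the whole range, at its 95% critical value. This was the dimmer NAB2 probe (A_23_P368187) in PT-G, whose replicate 4 was at 8.61 on the log2 scale, below the next array at 10.13, a gap of 0.96 of the range. Chance alone flags about 1 in 20 such sets. The brighter NAB2 probe on the same array was at 11.47, also the lowest of its group. No member had a digest response that differed between the early and the late scans after adjustment.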

How the results depend on the processing

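For PT-G and PT with MED-CTL, EGR3, EGR4 and NAB2 (A_23_P76151) stayed higher and called at a nominal p under 0.01 in all 27 alternatives, over ranges of 2.63 to 4.61, 2.70 to 3.49 and 0.89 to 1.18 for PT-G, and EGR1 and EGR2 stayed higher and not called. Counts after adjustment moved more. For PT-G with MED-CTL the 3 member probes became 5 with a replicate block, a run block or a slide block, the pairing adding NAB1 (A_23_P209805) and the dimmer NAB2 probe, and 0 with only the 2 groups compared. With only those groups, PT with MED-CTL fell from 3 to 1 and PT-G with p31-43 from 4 to 1. Leaving out 1 array gave 1 to 3 for PT-G and for PT with MED-CTL (1 without MED-CTL replicate 2, PT-G replicate 1 or 2, and without MED-CTL replicate 2 or PT replicate 1, 2 or 4), 1 to 4 for PT-G with p31-43 (1 without p31-43 replicate 4) and 1 to 3 for PT with p31-43 (1 without p31-43 replicate 1, 3 or 4 or PT replicate 1, 2 or 4). The cause was not tested. The replicate block changed no other count by more than 1.5 times.

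Signs turned only where the value of the main fit was smaller in size than its SE. For PT-G with PT, EGR4 was 0.0142 with background subtraction, 0.0329 with median scaling and 0.12 with array weights, EGR2 −0.18 with a slide block and −0.13 with array weights, EGR1 −0.14 and the dimmer NAB2 probe −0.00298 with a slide block. For p31-43 with MED-CTL, median scaling gave −0.0515 for EGR3, 0.0661 for NAB1 (A_23_P209805) and 0.00844 for the dimmer NAB2 probe, and array weights 0.29 for EGR1. The late minus early difference of EGR2 was 0.0055 with normexp and 0.0030 with median scaling. That scaling put the median difference over all probes at 0.11 for PT-G with p31-43 and −0.11 for PT with MED-CTL, from −0.0011 and −0.01. With 1 array left out, p31-43 with MED-CTL ranged from −0.41 to 0.44 for EGR1, −0.30 to 0.76 for EGR2, −0.0849 to 0.32 for EGR3, −0.34 to 0.65 for EGR4, −0.29 to 0.0207 for NAB1 (A_24_P191417) and −0.14 to 0.15 for the dimmer NAB2 probe. PT-G with PT ranged from −0.077 to 0.65 for EGR1, −0.0813 to 0.15 for EGR2, −0.23 to 0.18 for EGR4, −0.0072 to 0.31 for NAB1 (A_24_P191417), and −0.0497 to 0.24 and −0.14 to 0.52 for the brighter and dimmer NAB2 probes. PT with MED-CTL for NAB1 (A_24_P191417) ranged from −0.0327 to 0.28. The late minus early difference ranged from −0.80 to 0.79 for EGR2, −0.0755 to 1.01 for EGR4, −0.13 to 0.33 for NAB1 (A_24_P191417) and −0.24 to 0.0697 for NAB2 (A_23_P76151). EGR3 was not well above background in MED-CTL replicate 2, so signal over background limits its fold change.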
